A study of Mus musculus with 6 samples.

Results

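The 45 DNA replication genes described here encode the proteins that load and start the replicative helicase, copy both strands, join the new fragments and supply the deoxynucleotides. They were chosen by name, and all 45 were found among the 18193 genes that the annotation of the array names by a single symbol. They were measured in CNOT3-depleted and control mouse embryonic fibroblasts (MEFs) at 0, 6 and 12 h of actinomycin D (Act. D), an inhibitor of transcription, with a single array per condition and 6 arrays in all. The cells were primary fibroblasts from embryos with floxed CNOT3 alleles (CNOT3 loxP/loxP). CNOT3-depleted MEFs, named CNOT3KD in the labels, had been infected with a retrovirus that expresses the Cre recombinase, and control MEFs with a mock retrovirus. Both cultures were selected in puromycin. The labels give the control genotype as wild type, whereas the methods describe floxed cells infected with mock virus. How many cells of the CNOT3-depleted culture kept an intact allele was not given, and the 0 h samples received no Act. D. With 1 array per condition there was no replicate check of any difference at a given time, no test was run, and precision is limited by the few arrays.

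CNOT3 is a subunit of the CCR4-NOT complex, which shortens poly(A) tails and thereby starts the decay of mRNAs. DNA replication begins when the origin recognition complex (ORC), CDC6 and CDT1 load the MCM2-7 helicase onto DNA in G1, a step called licensing, which geminin blocks afterwards. In S phase the kinase CDC7, MCM10, CDC45 and the GINS complex turn the loaded helicase into an active one. DNA polymerase α with its primase starts each strand, the clamp loader RFC places the PCNA clamp, and polymerases δ and ε extend the strands while RPA covers single-stranded DNA. Many of these genes are transcribed at the entry into S phase by E2F factors, and proliferating fibroblasts express them.

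The values are linear signals per probe set, and each gene was read at its brightest probe set. The 45 genes had 99 probe sets, with more than 1 for 33 genes and a single one for 12. A signal below the 25th percentile of its array, between 13.6 and 19.8, was taken as near background. Only Cdc6 in control MEFs at 12 h fell there, and its values at that time are given as bounds. Because levels of different probe sets cannot be compared, each gene was compared only with itself across arrays. The authors had brought every array to the same average signal (trimmed means of 494 to 497), so a percentage left after Act. D compares each mRNA with the rest of the surviving mRNA, and values above 100% are possible. The share of all signal that fell on the brightest 1% of probe sets was 24.4%, 25.6% and 26.4% at 0, 6 and 12 h in CNOT3-depleted MEFs. It was 24.5%, 31.0% and 34.1% in control MEFs.

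Cnot3, the targeted gene, had a signal of 239.6 in CNOT3-depleted MEFs at 0 h, against 436 in control MEFs. A second Cnot3 probe set had 227 in CNOT3-depleted MEFs and 204 in control MEFs, and the position of either probe set relative to the floxed exons was not given in the sources used here. Of 8 fibroblast markers, 8 were above background on every array. Of the markers of other cells, 5 of 7 for leukocytes, 3 of 5 for epithelium, 3 of 4 for endothelium, 4 of 4 for skeletal muscle and 2 of 4 for neural cells were above background on every array. The summed signal of the leukocyte markers at 0 h was 3012 in CNOT3-depleted MEFs and 2055 in control MEFs. Cd68 (log2 fold 1.04), Cd14 (0.59), Lyz2 (0.58) and Csf1r (0.40) were higher, and Itgam and Cd3e were near background on some arrays. Ptprc, above background on every array, differed little at 0 h (0.06). At 6 h Ptprc had 26.2 in CNOT3-depleted MEFs and 60.5 in control MEFs. The summed leukocyte signal at 12 h was 4327 in CNOT3-depleted MEFs and 4349 in control MEFs. The summed endothelial and muscle signals overlapped between the cultures over the 3 times. The summed signal of 5 epithelial markers was 1188 to 1438 in CNOT3-depleted MEFs and 442 to 702 in control MEFs. At 0 h Krt8 (log2 fold 1.38) and Krt18 (1.04) were higher and Epcam differed little (0.09). Cldn4 went the other way, with 10.4 in CNOT3-depleted MEFs, near background, and 79.5 in control MEFs. Cdh1 was near background on 2 arrays. The summed signal of 4 neural markers was 1320 to 1583 in CNOT3-depleted MEFs and 855 to 1090 in control MEFs. At 0 h Tubb3 (log2 fold 0.82) was higher, and Map2 (0.20) and Gfap (-0.12) differed little. Snap25 was near background on 5 arrays and Gfap on 1. At 12 h Map2 had 466 in CNOT3-depleted MEFs and 473 in control MEFs. The part of these markers in the differences below was not tested. In such bulk samples, fewer cells in S phase and less RNA per cell cannot be told apart.

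Sequence before the start of transcription was read for the 37 genes whose promoter is in the RefSeq table (GRCm38.p6, 250 bases before to 50 after the start). The letters of an E2F site (TTTCCCGC, TTTGGCGC, TTTCGCGC or TTTGCCGC on either strand, where overlapping matches can count more than once) were found in 14 of the 37, or 37.8%, against 2.60% of the 27025 genes in the table. Windows of 30 bases are shown for 6 genes, chosen to cover licensing, the helicase and the priming polymerase, with the matching letters in capitals. Orc1, Cdc6, Mcm5, Mcm6, Mcm7 and Pola1 have them at chr4:108579416-108579445, chr11:98908002-98908031, chr8:75109347-75109376, chr1:128359795-128359824, chr5:138172030-138172059 and chrX:93632275-93632304, where Orc1, Cdc6 and Mcm5 are on the plus strand and Mcm6, Mcm7 and Pola1 on the minus strand. The first matching base was 27, 138, 153, 110, 165 and 138 bases before the start.
Orc1: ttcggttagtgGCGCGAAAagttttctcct
Cdc6: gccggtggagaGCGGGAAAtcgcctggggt
Mcm5: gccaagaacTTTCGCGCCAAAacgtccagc
Mcm6: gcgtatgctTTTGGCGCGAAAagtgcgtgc
Mcm7: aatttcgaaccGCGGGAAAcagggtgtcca
Pola1: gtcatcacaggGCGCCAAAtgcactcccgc
In Mcm5 and Mcm6 the capitals are 2 overlapping matches on opposite strands. The CHR letters (TTTGAA or TTCGAA) were in 21.6% of the 37 promoters and 21.7% of all, and CCAAT in 62.2% and 41.1%. A match is a description of letters and not of a bound site. No promoter sequence was used for Gins1, Gins2, Gins4, Gmnn, Mcm4, Pole, Prim2 and Rfc2.

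Before Act. D, replication genes were lower in CNOT3-depleted MEFs than in control MEFs as a group, most of them by a little. The signal was lower for 38 of the 45 genes, against 45% of all genes and 41.7% of those at or above the median signal. When arrays were divided by their median or by ribosomal protein genes, it was lower for 33 and 30 of the 45. Those divisions raised the all-gene median log2 fold to 0.15 and 0.19, and the share of all genes lower by any amount was not counted there. As deposited, the median log2 fold was -0.30, against 0.06 over all genes. More than 1.5-fold lower were 10 genes (22.2%), namely Tyms, Cdc6, Tk1, Pola1, Cdc45, Mcm10, Mcm5, Rpa2, Prim1 and Cdc7, while 15.7% of all genes were. More than 1.5-fold higher were 0 of 45, while 19.5% of all genes were. Replication genes are bright on these arrays, with 44 of 45 reaching the median signal at 0 h. Among genes at or above that median, 9 of 44 replication genes were lower, against a background of 6.77%, and 0 were higher, against 12.4%. Division of the arrays by ribosomal protein genes raises the ratio of every gene at 0 h. Tyms, Cdc6, Tk1, Pola1 and Cdc45 were then still more than 1.5-fold lower, and the other 5 were not. The 5 of 45 still lower compare with 12.8% of all genes, so the share lower did not exceed that of all genes. Rfc1 was more than 1.5-fold higher, as were 24.9% of all genes. When the median over a gene's probe sets was taken, Mcm5, Pola1 and Rpa2 were no longer called lower and Rrm1 was. At the second brightest probe set, which Cdc6 and Tk1 lack, Mcm5, Pola1, Prim1 and Rpa2 were not called lower, and Fen1, Mcm3 and Rrm1 were. By that median 8 of 45 were lower, against 17.9% of all genes, and at the second brightest 7 of 33, against 19.3%.

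**Figure D1:**
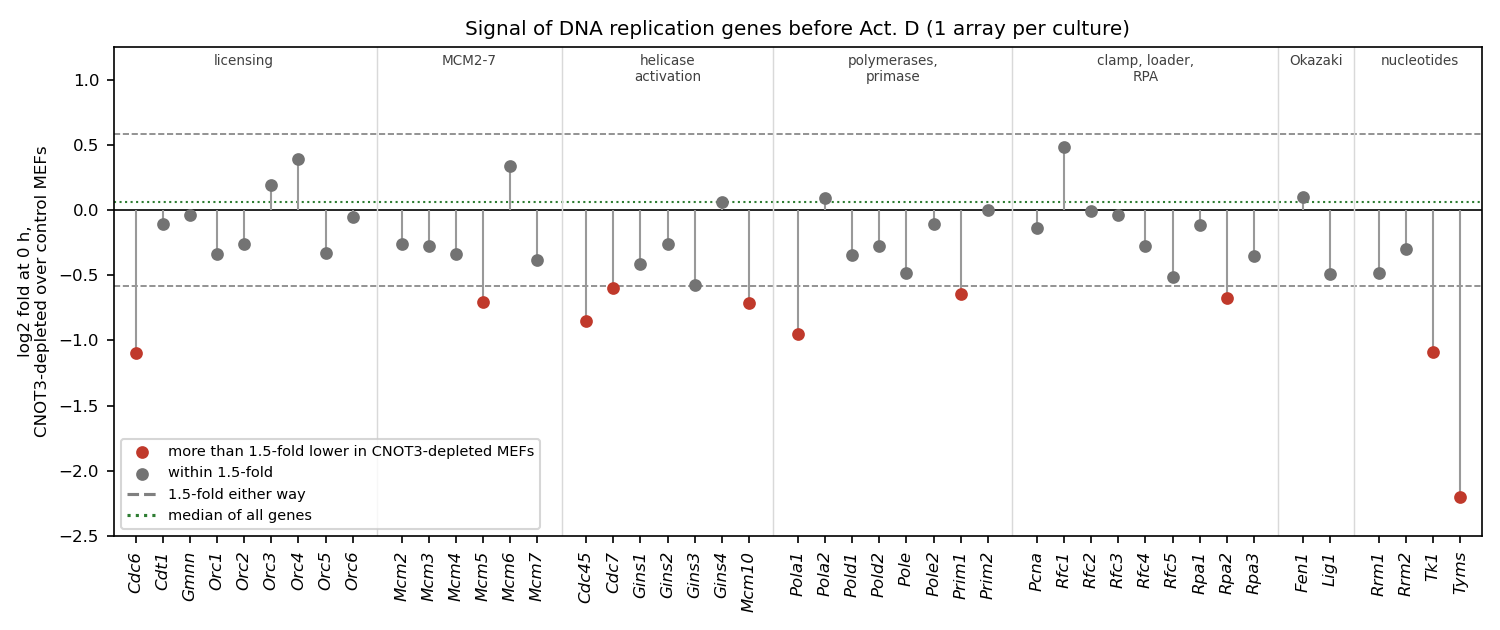
Log2 ratio of the 0 h signal in CNOT3-depleted over control MEFs for each of the 45 genes, grouped by role, with 1 array per culture. Of the 45 points, 38 lie below 0 and 10 below the lower dashed line of 1.5-fold, and 0 lie above the upper one.

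The 3 largest differences at 0 h were those of Tyms, Cdc6 and Tk1. By role, the median log2 fold was lowest for the 4 genes of nucleotide supply (-0.79) and the 7 of helicase activation (-0.57), and was -0.11 for the 9 licensing genes, of which only Cdc6 was more than 1.5-fold lower. Tyms, thymidylate synthase, had signals of 19.7, 28.8 and 40.1 at 0, 6 and 12 h in CNOT3-depleted MEFs, against 90.7, 99.7 and 129 in control MEFs, 4.61-fold lower at 0 h. It is the only member below the median signal, and its values stand close to background. Another Tyms probe set, near background on 1 array, was 2.85-fold lower at 0 h. The remaining ones were near background on 5 and 6 arrays, with log2 folds of -2.00 and 1.66, so the size of the fold depends on the probe set. Tk1, the S-phase thymidine kinase, had 652, 691 and 697 in CNOT3-depleted MEFs, against 1388, 1831 and 1501 in control MEFs, and was 2.13-fold lower at 0 h. The 3 CNOT3-depleted arrays lay below the 3 control arrays for both genes, as they did for 9 of the 45 (20%), against 8.6% of all genes and 8.5% of those at or above the median signal. At the brightest probe sets of 3 others, Orc3, Orc4 and Pola2, the CNOT3-depleted arrays all lay above the control arrays. The share of all genes doing so was not counted, and other probe sets of Orc3 and Orc4 were lower at 0 h in CNOT3-depleted MEFs. The 3 arrays of a culture differ in time and are not replicates. Neither Tyms nor Tk1 lost signal over 12 h in either culture. The genes of the ribonucleotide reductase subunits, Rrm1 and Rrm2, differed less. Rrm1 had 2926, 3273 and 3062 in CNOT3-depleted MEFs, against 4095, 5415 and 3630.4 in control MEFs. Rrm2 had 8048, 9148 and 8209.7 in CNOT3-depleted MEFs, against 9903, 12223 and 9906 in control MEFs. Both are among the 9 genes with all 3 CNOT3-depleted arrays below all 3 control arrays. Other probe sets of Rrm1 (log2 fold -0.59 at 0 h) and Rrm2 (-0.45) were lower in CNOT3-depleted MEFs as well.

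Among the genes of the polymerases, Pola1 and Prim1 were lower at 0 h, and Pola2 and Prim2 were not. Pola1, the catalytic subunit of polymerase α, had 309, 436 and 372 in CNOT3-depleted MEFs, against 599, 1037 and 826 in control MEFs, 1.93-fold lower at 0 h. Its other probe set was near background on 2 of the 6 arrays, with 20.6 in CNOT3-depleted MEFs and 8.11 in control MEFs at 0 h. Prim1, the catalytic subunit of primase, had 1004, 1407 and 1254 in CNOT3-depleted MEFs, against 1566, 1409.5 and 979 in control MEFs, 1.56-fold lower at 0 h. Their partners Pola2 and Prim2 differed by log2 folds of 0.09 and 0.00. Within this complex the catalytic subunits were lower and their partners were not.

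No gene passed 1.5-fold upwards, and the 3 highest ratios belonged to Rfc1, Orc4 and Mcm6. Rfc1, the large subunit of the clamp loader, had 1462, 1678 and 1689.9 in CNOT3-depleted MEFs, against 1044, 1693 and 1555 in control MEFs, a ratio of 1.40 at 0 h. Orc4, a subunit of ORC, had 2116, 2035 and 1936 in CNOT3-depleted MEFs, against 1609, 854 and 734 in control MEFs, a ratio of 1.31 at 0 h. Its other probe sets, all above background, had log2 folds of -0.12, -0.24 and -0.78, the opposite sign. The last was dim, with 23.6 in CNOT3-depleted MEFs and 40.4 in control MEFs at 0 h. Mcm6 is described with its complex.

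Under Act. D, replication mRNAs kept their signal in CNOT3-depleted MEFs, and many lost it in control MEFs. At 12 h the median gene had 112% of its 0 h signal in CNOT3-depleted MEFs and 62.5% in control MEFs, whereas over all genes the medians were 96.3% in CNOT3-depleted MEFs and 95.9% in control MEFs. Over genes at or above the median signal they were 95.1% in CNOT3-depleted MEFs and 72.8% in control MEFs. At most 50% was left for 3 of the 45 genes in CNOT3-depleted MEFs (Cdc6, Orc5 and Cdc7), while 18.9% of all genes and 16.8% of those at or above the median signal were that low. In control MEFs it was 19 of 45 genes (42.2%), while 29.7% of all genes and 38% of those at or above the median signal were that low. In control MEFs the share was near that of bright genes, while in CNOT3-depleted MEFs, at 6.67%, it was below theirs.

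**Figure D2:**
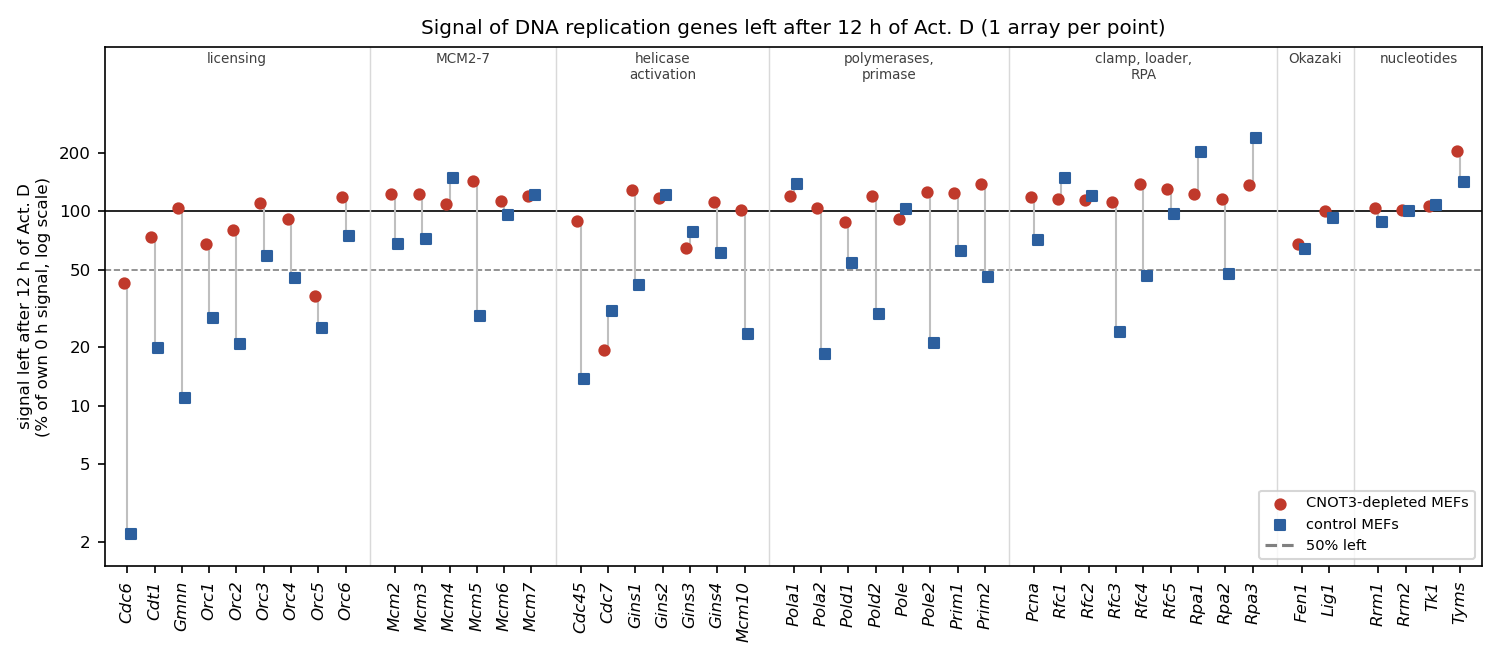
Percentage of the 0 h signal left 12 h after the addition of Act. D, in CNOT3-depleted MEFs (circles) and control MEFs (squares) for each of the 45 genes, on a log axis, with 1 array per point. Most circles lie near 100%, with a median of 112%, while the squares spread widely, with a median of 62.5%; the Cdc6 square is near background and marks at most 3.13%.

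The percentages were closer together in CNOT3-depleted MEFs. The interquartile range of the log2 fraction left at 12 h was 0.43 in CNOT3-depleted MEFs and 1.79 in control MEFs, against 1.04 in CNOT3-depleted MEFs and 2.04 in control MEFs over all genes. At 12 h, 22 genes (48.9%) exceeded the control signal in CNOT3-depleted MEFs by more than 1.5-fold, against 33.4% of all genes and 40.2% of those at or above the median signal. Another 9 (20%) were lower by as much, against 29.7% of all genes and 20.2% of those at or above the median signal, and the share lower was thus near that of bright genes. The median log2 fold was -0.30 at 0 h, -0.01 at 6 h and 0.58 at 12 h. Over all genes it was 0.06, 0.13 and -0.00, and over genes at or above the median signal it was 0.08, 0.21 and 0.26. These values depend on the scaling of the arrays: relative to 39 ribosomal protein genes the medians of the replication genes were -0.17, 0.54 and 1.30, while those of all genes moved to 0.19, 0.68 and 0.72. Such a division moves every gene by the same amount, so it leaves the difference from all genes as it is. Quantile normalization moves genes by unlike amounts. With it the 12 h medians were 0.16 for the replication genes and 0.04 for all genes. The difference from all genes at 12 h was then 0.12, against 0.58 as deposited.

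A gene was counted as stabilized where its 0 h signal reached the median of the arrays, its CNOT3-depleted signal at 6 h was between 0.5 and 2 times that at 0 h, and its fraction left exceeded the control fraction 2 times or more at 6 h and again at 12 h. Stabilized were 8 of the 45 genes (Cdc6, Gmnn, Cdt1, Mcm10, Rfc3, Cdc45, Orc2 and Orc1), against 10.6% of genes at or above the median signal. With the cultures exchanged, 0 members met the rule, against 0.479%. Log2 stabilization, the log2 ratio of the fractions left in CNOT3-depleted over control MEFs averaged over 6 and 12 h, had a median of 0.51, against 0.02 over all genes and 0.13 over those at or above the median signal. By role, 5 of the 8 are among the 9 licensing genes, 2 among the 7 genes of helicase activation and 1 among the 9 of clamp, clamp loader and RPA. Orc2 no longer met the rule after quantile normalization, nor did Mcm10 and Orc1 when all probe sets of a gene were averaged by their median, whereas 15 genes met it with arrays divided by ribosomal protein genes. The share of all genes meeting the rule under these alternatives was not counted. None of the 6 MCM2-7 genes, 8 polymerase and primase genes, 2 genes of Okazaki fragments or 4 genes of nucleotide supply met it as defined here. These groups are small, and the difference between roles was not tested.

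The licensing genes had the highest stabilization of the roles, with a median of 1.41. Cdc6, which loads the helicase together with ORC, had 269, 174 and 114 at 0, 6 and 12 h in CNOT3-depleted MEFs, against 574, 82.6 and 12.7 in control MEFs. After 12 h, 42.6% was left in CNOT3-depleted MEFs and at most 3.13% in control MEFs, for a log2 stabilization of at least 2.97. Cdc6 was thus lower in CNOT3-depleted MEFs at 0 h and at least 6.37-fold higher at 12 h. Cdt1, its partner in loading, had 2932, 2379 and 2171 in CNOT3-depleted MEFs, against 3158, 448 and 627 in control MEFs. Gmnn, which encodes geminin, the inhibitor of CDT1, had 1399, 1569 and 1460.1 in CNOT3-depleted MEFs, against 1436, 617 and 157 in control MEFs. Both started at nearly the same signal in the 2 cultures (log2 folds of -0.11 and -0.04) and separated under Act. D, with log2 stabilizations of 2.21 and 2.32. The mRNAs of the loader and of its inhibitor both kept most of their signal in CNOT3-depleted MEFs and lost most of it in control MEFs.

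The 6 ORC subunits did not share a course. Orc1, an ATPase of ORC, had 297, 221 and 201 in CNOT3-depleted MEFs, against 374, 95.2 and 106 in control MEFs. A second, dimmer Orc1 probe set went the other way, with 107, 43.4 and 56.3 in CNOT3-depleted MEFs, against 144, 124 and 148 in control MEFs, so the call of Orc1 rests on 1 of its probe sets. Orc2 had 810.0, 770.0 and 647 in CNOT3-depleted MEFs, against 968, 413 and 202 in control MEFs. After 12 h, the fraction left of Orc2 was 79.9% in CNOT3-depleted MEFs and 20.9% in control MEFs, and for Orc4 it was 91.5% in CNOT3-depleted MEFs and 45.6% in control MEFs. Orc3 had 1339.5, 1436 and 1475 in CNOT3-depleted MEFs, against 1176, 946 and 692 in control MEFs. Its 2 dimmer probe sets had log2 folds of -0.14 and -0.28 at 0 h, the opposite sign, and stayed near stabilizations of -0.08 and 0.03. Orc5 lost signal in both cultures, with 529, 211 and 194 in CNOT3-depleted MEFs, against 664, 122 and 167 in control MEFs. Orc6 kept most of its signal in both, with 118% left at 12 h in CNOT3-depleted MEFs and 74.5% in control MEFs. ORC had the widest range of any complex among the CNOT3-depleted percentages, from 36.6% for Orc5 to 118% for Orc6.

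**Figure D3:**
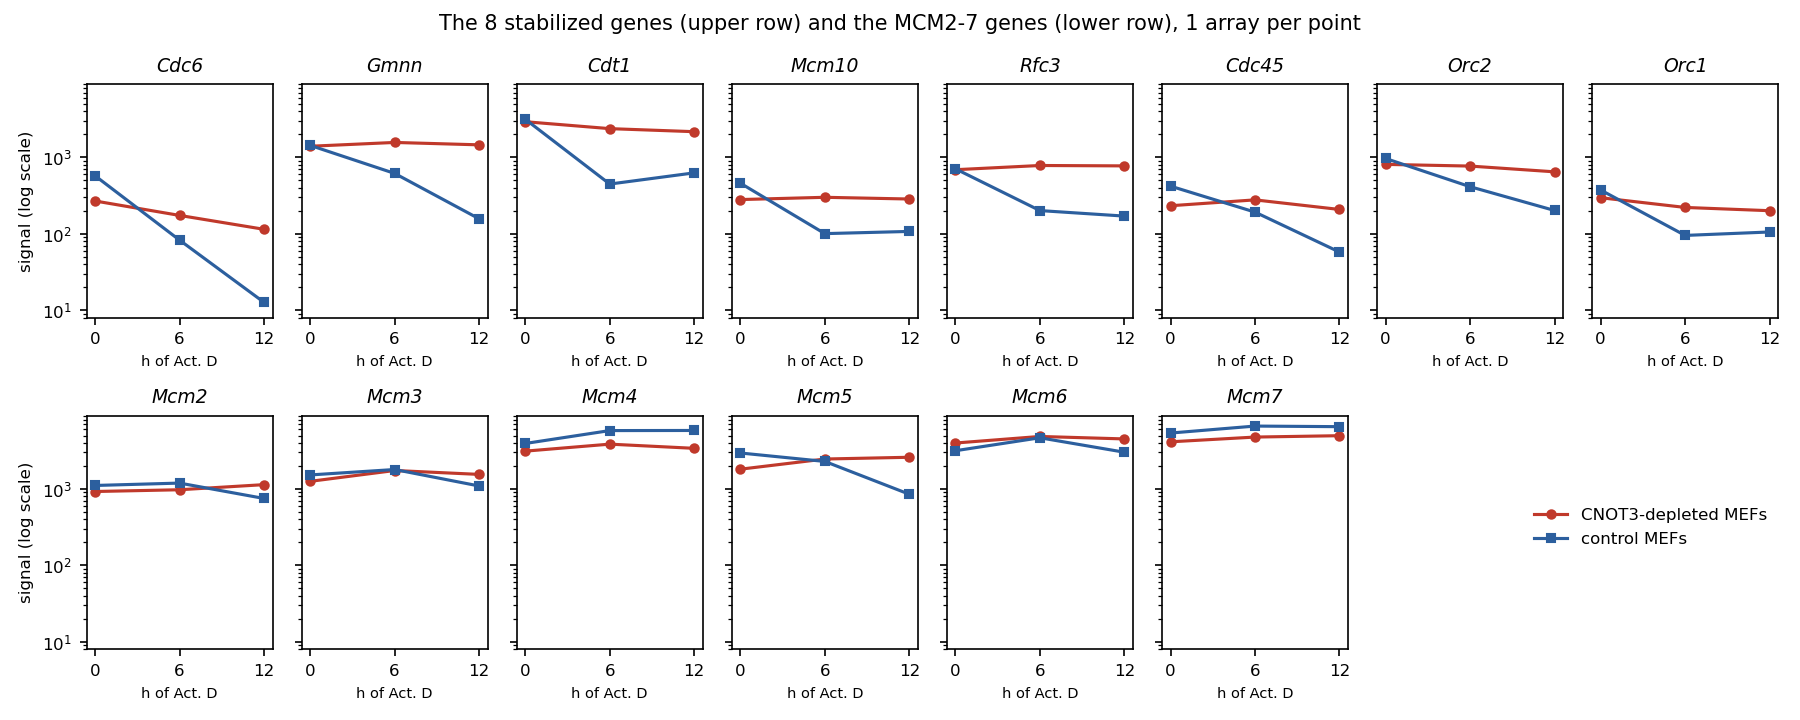
Signal over the Act. D course (0, 6 and 12 h) for CNOT3-depleted MEFs (circles) and control MEFs (squares) on a log axis, for the 8 stabilized genes (upper row, highest stabilization first) and the 6 MCM2-7 genes (lower row), with 1 array per point. In the upper row the control lines drop below the CNOT3-depleted ones by 6 h, and in the lower row only Mcm5 drops below 50% of its control signal at 0 h.

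The MCM2-7 subunits, which are needed in equal amounts for the helicase ring, kept like percentages in CNOT3-depleted MEFs and unlike ones in control MEFs. After 12 h the range was 109% to 143% in CNOT3-depleted MEFs, a ratio of 1.32 between the highest and the lowest subunit, and 28.9% to 148% in control MEFs, a ratio of 5.13. Mcm5 gave the low end of the control range. It had 1811, 2461 and 2595 in CNOT3-depleted MEFs, against 2951, 2288 and 852 in control MEFs, and so was 1.63-fold lower at 0 h and 3.05-fold higher at 12 h. Mcm4 gave the high end, with 3120.3, 3853 and 3397 in CNOT3-depleted MEFs, against 3932, 5799 and 5819 in control MEFs. Mcm2 had 924, 975 and 1137 in CNOT3-depleted MEFs, against 1109, 1191 and 749 in control MEFs. Mcm3 had 1256, 1741 and 1548 in CNOT3-depleted MEFs, against 1523, 1793 and 1092 in control MEFs. Both held their signal for 6 h in control MEFs and were lower by 12 h. Mcm6 had 3985, 4858 and 4509.9 in CNOT3-depleted MEFs, against 3159.8, 4668 and 3020.5 in control MEFs. Mcm7 had 4133, 4769.7 and 4971 in CNOT3-depleted MEFs, against 5383, 6644 and 6525 in control MEFs. Mcm4 and Mcm7 are also among the 9 genes with every CNOT3-depleted array below every control array, and the groups overlapped for the other 4 subunits. Other probe sets of Mcm3 (log2 stabilization of -0.30), Mcm6 (0.38) and Mcm7 (0.07 for 2 probe sets) had the opposite sign to the brightest one.

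Of the genes of helicase activation, Mcm10 and Cdc45 were both lower at 0 h and stabilized. Mcm10, which is needed to start unwinding, had 281, 300.3 and 285 in CNOT3-depleted MEFs, against 459.8, 100.5 and 107 in control MEFs. Cdc45, the partner of MCM2-7 in the active helicase, had 233, 278 and 208 in CNOT3-depleted MEFs, against 421, 192 and 57.7 in control MEFs. Both were above the control signal at 12 h, by 2.66-fold and 3.61-fold. At other Mcm10 probe sets, near background on some arrays, the log2 folds at 12 h were -0.23 and -0.42, so the rise of Mcm10 rests on its brightest one. Cdc7, the kinase that acts on the MCM subunits, did not share the course of Mcm10 and Cdc45. It had 384, 119 and 74.8 in CNOT3-depleted MEFs, against 580.0, 159.9 and 179 in control MEFs, so that 19.5% was left in CNOT3-depleted MEFs and 30.9% in control MEFs, the lowest CNOT3-depleted percentage of the 45 genes. A second, dimmer Cdc7 probe set had 76.1% and 54.7% left at 6 and 12 h in CNOT3-depleted MEFs, against 35.6% and 52.7% in control MEFs. Its log2 stabilization was 0.57, against -0.25 at the brightest one, so the course of Cdc7 depends on the probe set. The 4 GINS genes differed from each other, with log2 stabilizations of 1.23 for Gins1, 0.45 for Gins4, 0.13 for Gins3 and -0.06 for Gins2. At 12 h, Gins1 had 129% left in CNOT3-depleted MEFs and 41.6% in control MEFs, and Gins2 had 118% in CNOT3-depleted MEFs and 122% in control MEFs. Gins3 was close to the threshold at 0 h, 1.49-fold lower.

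The catalytic and smaller subunits of the polymerases also differed in control MEFs. Pole2, the second subunit of polymerase ε, had 1157, 1339.7 and 1459 in CNOT3-depleted MEFs, against 1245, 972 and 262 in control MEFs, so that 126% was left in CNOT3-depleted MEFs and 21.0% in control MEFs. Pole, the catalytic subunit, had 432, 397 and 392.5 in CNOT3-depleted MEFs, against 603, 817 and 617 in control MEFs, with 90.9% left in CNOT3-depleted MEFs and 102% in control MEFs. Pola2, the accessory subunit of polymerase α, had 390.4, 379 and 406 in CNOT3-depleted MEFs, against 366, 188 and 68.0 in control MEFs, and Pola1 had 120.2% left at 12 h in CNOT3-depleted MEFs and 138% in control MEFs. In both enzymes the accessory subunit lost most of its signal in control MEFs and the catalytic subunit did not. Polymerase δ had the narrowest control range of the complexes, with 88.2% left of Pold1 and 119% of Pold2 in CNOT3-depleted MEFs, against 54.0% of Pold1 and 29.7% of Pold2 in control MEFs. Prim2, the large primase subunit, had 937, 1228 and 1296 in CNOT3-depleted MEFs, against 939, 725 and 429.9 in control MEFs. Pola2 and Pole2 had log2 stabilizations of 1.70 and 1.58 over both times but missed the rule at 6 h alone, where they had 0.92 and 0.57.

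In the clamp loader RFC, Rfc3 stood apart. It had 690.1, 783 and 774 in CNOT3-depleted MEFs, against 709, 201 and 170.5 in control MEFs, a log2 stabilization of 2.11, and another Rfc3 probe set gave 2.12. The large subunit Rfc1 had the opposite sign (-0.43), with 116% left at 12 h in CNOT3-depleted MEFs and 149% in control MEFs, and its other probe sets gave -0.07 and 0.18. Rfc2 had 1118, 1419.9 and 1272 in CNOT3-depleted MEFs, against 1124, 1764 and 1355 in control MEFs. At 12 h, Rfc4 had 139% left in CNOT3-depleted MEFs and 46.7% in control MEFs, and Rfc5 had 129.9% in CNOT3-depleted MEFs and 96.9% in control MEFs. Over the 5 subunits, the ratio of the highest to the lowest percentage was 1.24 in CNOT3-depleted MEFs and 6.19 in control MEFs. Pcna, the clamp itself, had 9149, 10783 and 10793 in CNOT3-depleted MEFs, against 10069, 12511 and 7143 in control MEFs. Its level differed by a log2 fold of -0.14 at 0 h.

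Rpa1 and Rpa3, of the 3 RPA genes, had the lowest stabilization among the 45 (-0.67 and -0.63). Rpa3, the smallest subunit, had 1174, 1518 and 1613 in CNOT3-depleted MEFs, against 1498, 2667 and 3561 in control MEFs, so that 137% was left in CNOT3-depleted MEFs and 238% in control MEFs. Rpa1, the large subunit, had 6574, 7459 and 8078 in CNOT3-depleted MEFs, against 7113, 12532 and 14300.0 in control MEFs, with 123% left in CNOT3-depleted MEFs and 201% in control MEFs. A percentage above 100% under a block of transcription means that these mRNAs took a larger share of the remaining signal. Ribosomal protein genes, a class of long-lived mRNAs, had a median of 113% left in CNOT3-depleted MEFs and 181% in control MEFs at 12 h. Rpa2 went the other way, with 116% left in CNOT3-depleted MEFs and 47.8% in control MEFs.

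In 8 of 8 complexes with several members (MCM2-7, ORC, GINS, RFC, RPA and the polymerases α with primase, δ and ε), the ratio between the highest and the lowest subunit was wider in control MEFs. It was nearly equal for ORC (3.22 in CNOT3-depleted MEFs and 3.57 in control MEFs) and farthest apart for polymerase α with primase (1.33 in CNOT3-depleted MEFs and 7.43 in control MEFs). Over all genes the percentages were wider in control MEFs as well, as given above.

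The lower signal at 0 h and the higher one at 12 h met in 5 genes, Cdc6, Cdc45, Mcm5, Mcm10 and Rpa2, which were more than 1.5-fold lower in CNOT3-depleted MEFs at 0 h and more than 1.5-fold higher at 12 h. Over all genes, 3.08% did so.

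The genes of Okazaki fragment maturation showed little difference in decay. Fen1, the flap nuclease, had 1270.2, 1052 and 865 in CNOT3-depleted MEFs, against 1188, 1071 and 765 in control MEFs, with a log2 stabilization of -0.02. Its second probe set differed, with 635, 627 and 471 in CNOT3-depleted MEFs, against 956, 517 and 381 in control MEFs, so the value of Fen1 depends on the probe set. Lig1, the ligase, had 100.3% left in CNOT3-depleted MEFs and 92.0% in control MEFs after 12 h.

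Besides the brightest one, 37 probe sets of 26 genes reached the median signal at 0 h and were not near background on any array. Of these, 28 had the sign of the brightest probe set at 0 h and 26 its sign of stabilization. For the genes called lower at 0 h, 4 of 4 others had the same sign, and 1 of them was itself more than 1.5-fold lower. For the stabilized genes, 4 of 5 had the same sign and 3 met the rule themselves, with Orc1 as the exception. Opposite signs at 0 h were seen in 6 genes, and opposite signs of stabilization in 10.

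Genes with and without the E2F letters had like medians at 0 h, and the difference was not tested. Among the 14 with a match, 3 were lower at 0 h and 4 were stabilized, with a median log2 fold of -0.34. Among the 23 without one, 7 were lower and 3 were stabilized, with a median of -0.30. The 6 genes whose windows are printed include Mcm5, with the lowest control percentage of MCM2-7, and Mcm7, with 121% left.

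Related gene lists were read in the same way. Over all genes, 15.7% were lower and 19.5% higher at 0 h. Among genes at or above the median signal, 6.77% were lower, 12.4% higher and 10.6% stabilized. Of 40 other replication genes measured, 10 (25%) were lower at 0 h, 0 were higher and 8 (20%) were stabilized. Their medians were -0.29 for the log2 fold at 0 h and 0.62 for the log2 stabilization, close to the values of the 45. The lowest were Uhrf1, a reader of hemimethylated DNA (-1.07), Atad5, which unloads PCNA (-0.95), and Dbf4, the activator of CDC7 (-0.72), and the most stabilized were Asf1a, a histone chaperone (2.74), Dscc1, a clamp loader subunit (2.17), and Slbp, which binds histone mRNAs (2.01). Genes of mitosis and spindle had a lower median at 0 h than the replication genes. Of 39 measured, 23 (59.0%) were lower and 1 (2.56%) higher, the median was -0.72, and 12 genes (30.8%) met the stabilized rule. Birc5, which encodes survivin (-1.43), Kif11, a spindle motor (-1.39), and Cenpa, the centromeric histone (-1.35), had the lowest log2 folds, and Plk1, a mitotic kinase (3.02), Incenp (2.89) and Ccna2, cyclin A (2.72), the highest stabilization.

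Genes of DNA repair were not lower at 0 h as a group. Of 43 measured, 5 (11.6%) were lower and 2 (4.65%) higher, against 15.7% and 19.5% of all genes, with a median log2 fold of 0.08. Stabilized were 9 (20.9%), with a median log2 stabilization of 0.53, against 10.6% of genes at or above the median signal. Fanca and Rad51c (-0.90 each) and Fanci (-0.78) were lowest at 0 h, and the mismatch repair genes Msh6 (2.90) and Pms2 (2.28) and the break sensor Nbn (2.48) most stabilized. Of 25 genes of G1 cyclins, CDKs and E2F factors, 6 (24%) were lower, 3 (12%) higher and 3 (12%) stabilized, with medians of -0.16 and 0.27. The share stabilized was near that of genes at or above the median signal. The stabilized genes were Ccne2, cyclin E (log2 stabilization of 1.93), E2f7 (1.53) and the CDK inhibitor Cdkn1a (1.48), of which Cdkn1a was named after its values were seen. E2f8 and E2f7 were low at 0 h (-1.03 and -0.94). E2f8 had a log2 stabilization of 2.66 but did not meet the rule, with 47.8% left at 6 h in CNOT3-depleted MEFs. E2f2 was near background on 2 arrays, at 0 and 6 h in CNOT3-depleted MEFs. Its fold is not given, but it is counted among the 6 lower genes. The differences between lists were not tested.

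**Figure D4:**
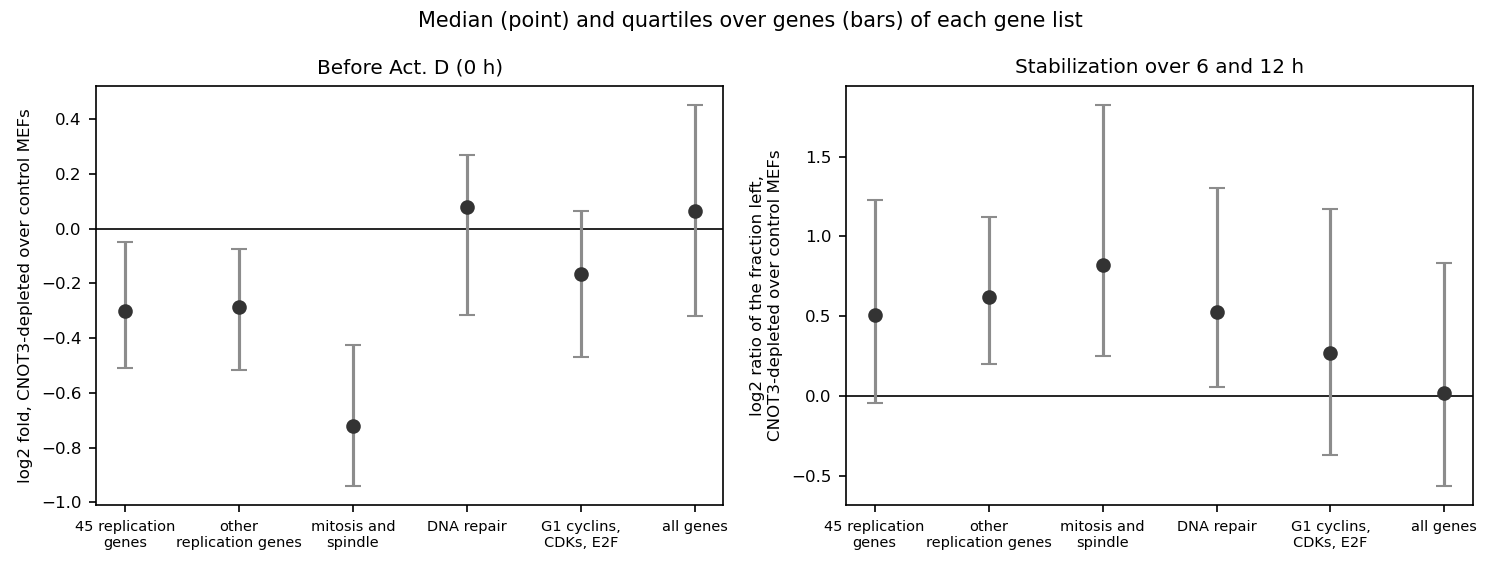
Median (point) and quartiles over genes (bars) of the log2 fold at 0 h (left) and of log2 stabilization (right), CNOT3-depleted over control MEFs, for the 45 replication genes, the other lists and all genes. The median at 0 h is -0.30 for the replication genes, -0.72 for mitosis and spindle and 0.06 for all genes; the bars show the spread between genes and not an error.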

How the data were processed

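Total RNA from CNOT3-depleted and control MEFs at 3 times was hybridized to Affymetrix mouse arrays. The authors deposited MAS5 signals, a linear intensity per probe set. The sources used here give neither the version nor the scaling target of MAS5. The 45037 probe sets were named with the platform annotation; 34945 have 1 symbol, and 2 that name a member with another gene were not read. Of the members, 45 gene IDs matched the reference list. A floor of 1 was applied and arrays were not rescaled. Each gene was read at its brightest probe set by mean log2 signal. Folds are CNOT3-depleted over control. No test was run, with 1 array per condition; the times were not taken as replicates. Counting steps were tested on simulated data. Members with all 6 values were chosen by the size of their fold, stabilization or percentage left, and by disagreement of probe sets. The members and lists were chosen with earlier results of these data known. Some genes of the other lists are not reported here. Python 3.11.15, numpy 2.4.6, pandas 2.3.3 and matplotlib 3.10.9 were used. Alternatives were other scalings, probe set choices, floors and thresholds.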

Additional observations from a re-analysis of the deposited data

Results flagged for a closer look

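For 5 genes the order of the cultures turned over under Act. D: they were more than 1.5-fold lower in CNOT3-depleted MEFs at 0 h and more than 1.5-fold higher at 12 h. Over all genes, 3.08% did so. The log2 fold was -0.70 at 0 h and 1.61 at 12 h for Mcm5, -0.71 and 1.41 for Mcm10, and -1.10 and 3.18 for Cdc6, whose 12 h control signal was near background, so that the log2 fold was at least 2.67. It was -0.85 and 1.85 for Cdc45, and -0.67 and 0.61 for Rpa2. The difference between the 2 times was not tested, since each value comes from 1 array per culture. When arrays were divided by ribosomal protein genes, Mcm5, Mcm10 and Rpa2 were no longer more than 1.5-fold lower at 0 h. Mcm5 and Rpa2 also lost this call with the median over a gene's probe sets and at the second brightest probe set. Other Mcm10 probe sets, near background on some arrays, were not higher at 12 h (log2 folds of -0.23 and -0.42).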

How the results depend on the processing

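With no replicates, a median log2 value that moved by less than 0.1 (percentages on the log2 scale) or a count within 1.5 times counted as unchanged; 56 summary values under the alternatives did so and 36 moved. In every setting run the median log2 fold at 0 h stayed below 0. For the replication genes, quantile normalization gave medians of 0.16 at 12 h and 0.30 for stabilization, against 0.04 and -0.04 over all genes. It left 122% at 12 h in CNOT3-depleted MEFs, against 109% (6 h) and 82.5% (12 h) in control MEFs. Lig1 and Rfc5 joined the lower genes and Orc2 left the stabilized ones. Arrays divided by their median gave 0.86 at 12 h, with 152% and 160% left at 6 and 12 h in CNOT3-depleted MEFs, against 127% and 77.9% in control MEFs, and Cdc7 and Prim1 were no longer called lower. Division by 39 ribosomal protein genes gave 5 lower, 1 higher and 15 stabilized genes, medians of -0.17, 0.54 and 1.30 at 0, 6 and 12 h and 1.02 for stabilization, with 100.3% left at 12 h in CNOT3-depleted MEFs, against 67.7% (6 h) and 37.0% (12 h) in control MEFs. It moved the all-gene median stabilization from 0.02 to 0.53. In that setting 12.8% of all genes were lower and 24.9% higher, so the share of replication genes lower did not exceed that of all genes. The median over all probe sets gave 2 genes higher at 0 h, medians of 0.091 at 6 h, 0.39 at 12 h and 0.33 for stabilization, 97.6% left at 6 h in control MEFs, and 0.20 for Pola1 at 0 h. The second brightest probe set, available for 33 genes, gave 3 genes higher and 3 stabilized, medians of 0.19 at 6 h, 0.30 at 12 h and 0.38 for stabilization, 80.0% left at 12 h in control MEFs, -1.02 for the stabilization of Orc1, and 1.35 for Pola1 at 0 h, where that probe set was near background in control MEFs. Genes without a second probe set, Cdc6 among them, have no value there. A fold of 2 left 3 of 45 genes lower, against 8.79% of all genes, so the share lower did not exceed that of all genes. Higher at 0 h were 19.6% of all genes by the median over probe sets and 17.3% at the second brightest. A stabilized rule of 1.5 times gave 15 genes, and 1 with the cultures exchanged. The share of all genes stabilized under the alternatives was not counted. Median stabilization was 0.39 at 6 h alone and 0.73 at 12 h alone. A floor of 20, leaving out Tyms as below the median signal, and dropping the limit on the ratio of 6 h to 0 h left the summary values unchanged. Apart from the named calls, the cause of these changes was not tested. No paired analysis was possible because each condition has 1 array, and a fit that takes the times as repeats of a culture was not run.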
